A study of Mus musculus with 11 samples.

Results

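The lysosome is the compartment in which a cell breaks down what it has engulfed or discarded, and 36 genes that encode its proteases, its glycan- and lipid-degrading enzymes, its membrane proteins and their transcriptional regulator Tfeb were followed in the mouse cerebral cortex after a photothrombotic stroke. The genes were given as a list of symbols, chosen with earlier results of these data known. A mean of at least 0.5 CPM was required, and all 36 listed genes were found among the 22377 genes measured. By role they are 12 proteases, 7 membrane proteins, 10 glycan hydrolases, 6 lipid enzymes and carriers, and 1 regulator. Progranulin (Grn) is counted with the lipid enzymes and carriers, though it is neither. The measure is CAGE (cap analysis of gene expression), which counts sequence tags at the capped 5′ ends of transcripts, so that a gene's value does not scale with its length. Values are CPM, the tags of a gene scaled to a common library size.

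Photothrombosis (PT) closes cortical vessels by exciting the dye rose bengal with light, here over the left parietal cortex of male C57BL/6N mice. The groups were a naive cortex, labelled control and untreated, and the infarcted and the non-infarcted side in each of 5 states: 7 d after PT, 7 d after PT with levetiracetam (LEV), 1 m after PT, 1 m after PT with LEV, and 2 m after PT with LEV withdrawn for 2 weeks. LEV is an antiseizure drug, and the study followed seizure susceptibility after stroke. The design text gives ages of 8 to 10 and 65 to 85 weeks, with no age for a library, and the title speaks of aged mice. It starts LEV at 1 month and withdraws it for 1 week, whereas the sample labels name LEV at 7 d and a withdrawal of 2 weeks. The labels were followed. Each of the 11 groups is 1 library, and how many mice a library holds, or whether both sides came from the same mice, is not stated. The 5 states therefore served as repeats of the comparison between sides, and p-values describe the spread of these libraries only.

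Lysosomal enzymes are made as precursors, tagged with mannose 6-phosphate, delivered to the lysosome and activated by its acid. In injured brain tissue, microglia and infiltrating macrophages engulf dead cells and myelin, and cells filled with lysosomes are a known feature of an ageing infarct. The transcription factor TFEB binds an E-box motif in the promoters of many lysosomal genes and raises them together when it enters the nucleus.

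Libraries held 12928291 to 21000367 tags, and 3 tags corresponded to 0.143 to 0.232 CPM. Summed levels of cell type markers also differed between sides. The 10 microglia markers summed to 396 to 1051 CPM on the infarcted side and 216 to 261 CPM on the non-infarcted side, and the 8 fibroblast markers to 105 to 1334 CPM and 78.6 to 163 CPM. The 10 neuronal markers summed to 5184 to 6933 CPM and 5877 to 7985 CPM. The neutrophil markers were highest, at 166 CPM, in the non-infarcted library at 7 d. In whole cortex, fewer or more cells of a type and less or more RNA per cell cannot be told apart.

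Promoter windows of 250 bases before the RefSeq start (GRCm38.p6) were at hand for 32 of the 36 genes. The core E-box CACGTG, which reads the same on both strands, was searched in them, together with the longer TCACGTGA, which contains it. The sequences shown, 5′ to 3′ with CACGTG in capitals, stand for a gene with 4 copies (Lamp1), a gene with none that differed strongly between sides (Ctss), and the 2 copies each of a protease with a large difference (Ctsd) and of the one membrane protein without a rise (Mcoln1). They were chosen after the values were seen. The windows are chr8:13158911-13159160 on the plus strand for Lamp1 and chr3:95526536-95526785 on the plus strand for Ctss. For Ctsd and Mcoln1 only the copies are printed, with up to 10 bases on each side, at chr7:142388057-142388077 and chr7:142387910-142387935 on the minus strand and at chr8:3500438-3500463 and chr8:3500464-3500489 on the plus strand.
Lamp1: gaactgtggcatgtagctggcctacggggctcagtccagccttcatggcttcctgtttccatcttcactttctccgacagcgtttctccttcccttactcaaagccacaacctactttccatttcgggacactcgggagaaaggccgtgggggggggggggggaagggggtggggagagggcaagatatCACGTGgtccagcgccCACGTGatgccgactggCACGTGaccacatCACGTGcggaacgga
Ctss: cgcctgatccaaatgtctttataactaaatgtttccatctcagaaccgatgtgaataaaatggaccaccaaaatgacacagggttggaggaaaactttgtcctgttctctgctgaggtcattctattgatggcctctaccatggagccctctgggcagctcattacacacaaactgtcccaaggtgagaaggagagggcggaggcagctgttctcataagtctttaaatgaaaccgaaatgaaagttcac
Ctsd, distal copy: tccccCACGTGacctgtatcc
Ctsd, proximal copy: gcccgcgtctCACGTGacccgttgag
Mcoln1, distal copy: tcgcgcttgtCACGTGttcagttcag
Mcoln1, proximal copy: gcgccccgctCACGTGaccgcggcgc

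The copies lie 61, 45, 28 and 15 bases before the RefSeq start in Lamp1, 245 and 98 in Ctsd, and 71 and 45 in Mcoln1. The GENCODE start of Ctsd and of Mcoln1 lies farther upstream. By the GENCODE coordinates given below, the proximal copies of Ctsd and Mcoln1 therefore lie inside the gene. CACGTG was present in 12 of the 32 genes (37.5%), and in 12 of their 37 windows, against 6.02% of all 32851 RefSeq windows of the same length. TCACGTGA was present in 4 of the 32 genes (12.5%), namely Ctsa, Ctsd, Mcoln1 and Gla, and in 4 of their 37 windows, against 0.785% of all windows. The percentages of the lysosomal genes count genes, and those of all windows count windows. A match is a string of letters and not a measured binding site.

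The infarcted side held more tags of most lysosomal genes than the non-infarcted side. Over the 5 states, 21 of the 36 genes rose on the infarcted side and none fell (limma on log2(CPM + 1), state as a factor, Benjamini-Hochberg adjusted p under 0.05), where 6.21% of the 16229 genes tested rose and 0.789% fell. Because the list was chosen with earlier results of these data known, the contrast with all genes is a description and not an independent test. The median difference of the 36 genes was 0.74 on the log2 scale, against 0.01 over all genes tested. Differences of 34 genes were positive, and the 2 negative ones were those of Mcoln1 and Neu1. In 28 genes the infarcted library was the higher in all 5 states. In 15 genes every infarcted library lay above every non-infarcted one, which held for 3.23% of all genes tested, and no gene showed the opposite.

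The rise was uneven among the roles. It included 10 of 12 proteases (median difference 1.11), 6 of 7 membrane proteins (0.45), 3 of 6 lipid enzymes and carriers (0.80) and 2 of 10 glycan hydrolases (0.40). Tfeb itself did not pass. These calls rest on few libraries. Without the 1 m pair 0 of the 36 genes passed, without the 7 d pair 1 did (Ctss), without the 7 d LEV pair 2 did (Ctss and Laptm5), and 24 did without either the 1 m LEV or the 2 m pair. With state left out of the model 7 passed, and under the other settings 18 to 21.

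**Figure D1:**
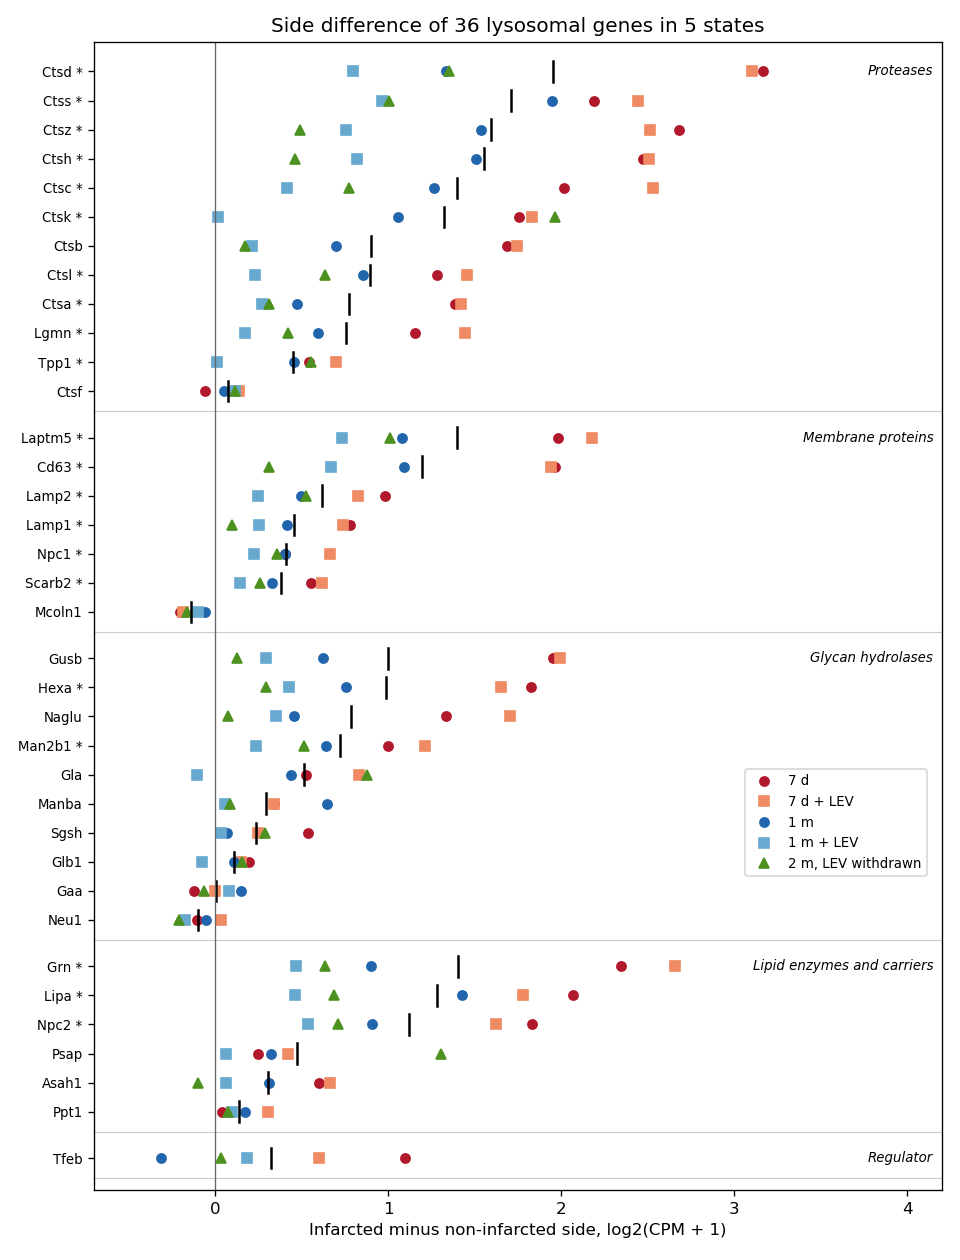
Difference between the infarcted and the non-infarcted side, on the log2(CPM + 1) scale, for each of 36 lysosomal genes (rows, grouped by role) in each of 5 states (symbols, 1 library pair each); the black bar is the mean over the 5 states and an asterisk marks an adjusted p under 0.05. The 7 d and 7 d LEV pairs lie farthest right for most genes, and Mcoln1 is the 1 gene left of 0 in all 5 states.

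In every list that follows, values are in the order 7 d, 7 d with LEV, 1 m, 1 m with LEV and 2 m, and a side difference is infarcted minus non-infarcted on the log2(CPM + 1) scale with its standard error. Cathepsin D (Ctsd, chromosome 7, 142375911 to 142388038, minus strand, GRCm38 with GENCODE M21), the main aspartic protease of the lysosome, stood at 1523, 1303, 260.2, 222 and 269.5 CPM on the infarcted side. On the other side it stood at 169, 151, 103, 128 and 105 CPM, and the naive cortex held 114 CPM. All infarcted libraries lay above all others, and the 7 d pair stood farthest apart, with a ratio of 9.01 (exact 95% interval 8.68 to 9.36, counting error only). The side difference was 1.95 ± 0.33 (adjusted p = 0.0147).

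Cathepsin S (Ctss, chromosome 3, 95526786 to 95556403, plus strand), a cysteine protease of microglia and antigen-presenting cells, stood at 235, 209, 114, 78.2 and 100.1 CPM on the infarcted side. Non-infarcted levels were 50.8, 37.5, 28.8, 39.7 and 49.5 CPM, and the naive level was 32.3 CPM. The groups did not overlap, and its side difference of 1.71 ± 0.21 had an adjusted p of 0.00646. Cathepsin Z (Ctsz), a carboxypeptidase, stood at 319, 283, 121, 96.6 and 82.5 CPM against 49.0, 48.6, 41.2, 56.9 and 58.5 CPM, with 45.6 CPM in naive cortex (1.59 ± 0.30, adjusted p = 0.019). Cathepsin H (Ctsh), an aminopeptidase, stood at 142, 112, 55.8, 34.6 and 33.9 CPM against 24.7, 18.9, 19.0, 19.2 and 24.4 CPM, with 18.3 CPM in naive cortex (1.55 ± 0.28, adjusted p = 0.0176). For both, the infarcted libraries lay above the rest, closest at 2 m.

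Cathepsin C (Ctsc), which activates the serine proteases of immune cell granules, stood at 40.3, 44.0, 21.0, 10.1 and 11.2 CPM against 9.23, 6.80, 8.13, 7.33 and 6.13 CPM, with 7.66 CPM in naive cortex (1.40 ± 0.27, adjusted p = 0.0202). Cathepsin K (Ctsk), the collagen-degrading cathepsin of osteoclasts, stood at 10.4, 9.16, 5.31, 2.03 and 8.09 CPM against 2.39, 1.86, 2.03, 2.00 and 1.34 CPM, with 2.09 CPM in naive cortex (1.32 ± 0.26, adjusted p = 0.0211). The groups of Ctsk overlapped through the infarcted library at 1 m with LEV alone. In that state the ratio between sides was 1.02 (0.639 to 1.61), while at 2 m it was 6.06 (3.85 to 9.98).

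Cathepsin B (Ctsb), an abundant cysteine protease, stood at 908, 869, 384, 364 and 422 CPM against 282, 259, 237, 315 and 376 CPM, with 259 CPM in naive cortex. It was higher on the infarcted side in all 5 states, but the groups overlapped and the difference of 0.90 ± 0.24 missed the threshold (adjusted p = 0.0544). Cathepsin L (Ctsl), another cysteine protease, stood at 132, 133, 69.2, 50.7 and 62.2 CPM against 53.7, 47.8, 37.8, 43.1 and 39.7 CPM, with 46.8 CPM in naive cortex (0.89 ± 0.16, adjusted p = 0.0156). Its 1 m LEV infarcted library lay inside the non-infarcted range. Cathepsin A (Ctsa), a carboxypeptidase that also protects neuraminidase and β-galactosidase in a complex, stood at 172, 165, 92.3, 93.6 and 96.6 CPM against 65.3, 61.1, 66.3, 77.6 and 77.8 CPM, with 64.8 CPM in naive cortex and no overlap (0.77 ± 0.18, adjusted p = 0.0369).

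Legumain (Lgmn), the asparaginyl endopeptidase, and tripeptidyl peptidase 1 (Tpp1) also rose, by 0.76 ± 0.16 (adjusted p = 0.0296) and 0.45 ± 0.10 (adjusted p = 0.0287). Lgmn ranged from 99.2 to 206 CPM on the infarcted side and from 68.3 to 89.8 CPM on the other, Tpp1 from 28.9 to 51.8 CPM and from 25.3 to 32.1 CPM. Cathepsin F (Ctsf) was the protease with the smallest difference, 0.07 ± 0.06 (adjusted p = 0.517). It stood at 60.9, 62.8, 54.1, 61.5 and 71.8 CPM against 63.5, 57.1, 52.3, 56.7 and 66.2 CPM, with 64.2 CPM in naive cortex, so that both sides covered the same range.

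**Figure D2:**
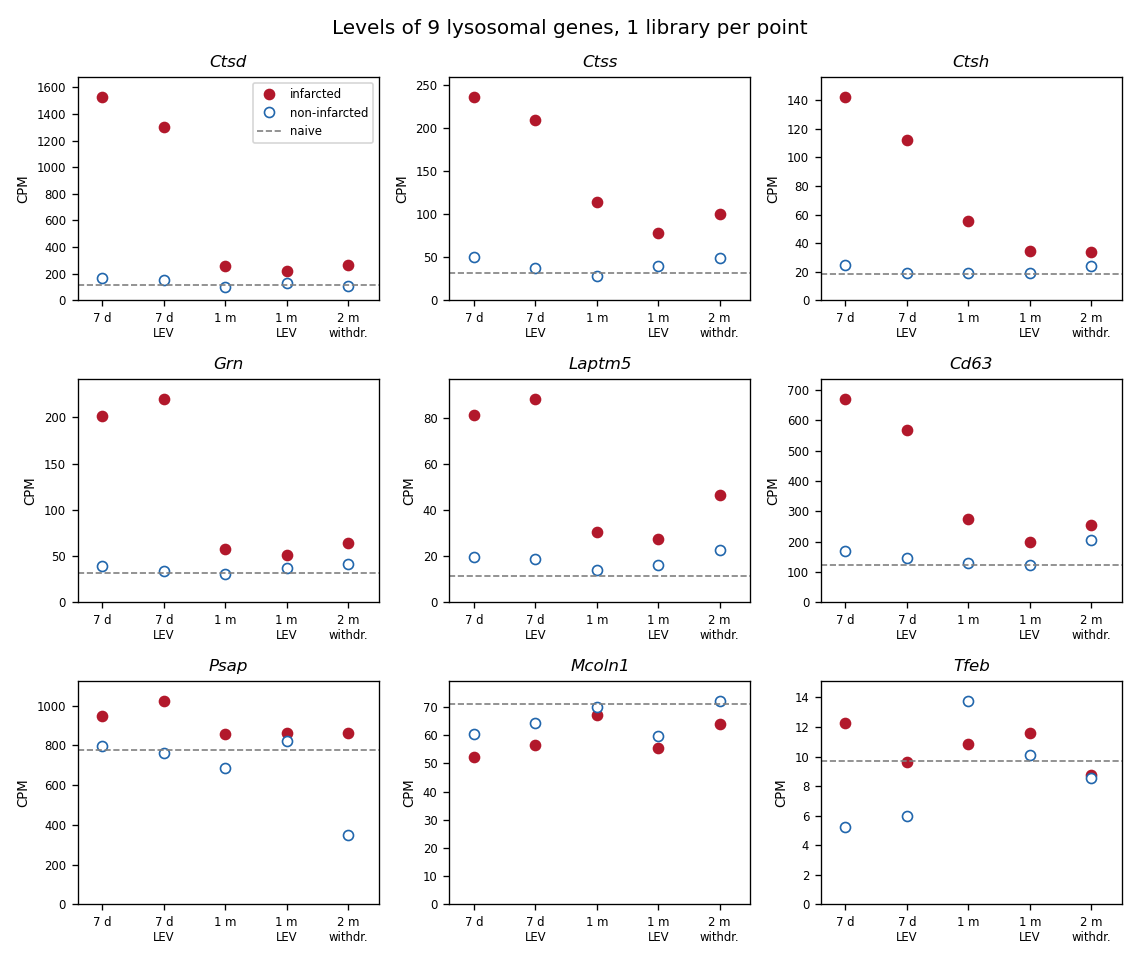
CPM of 9 lysosomal genes (panels) in 5 states (x axis), with the infarcted side as filled points, the non-infarcted side as open points and the 1 naive library as a dashed line; each point is 1 library. Ctsd reaches 1523 CPM at 7 d and 260.2 CPM at 1 m on the infarcted side, Psap has 1 low point at 348 CPM on the non-infarcted side at 2 m, and the 2 low Tfeb points at 7 d are non-infarcted libraries.

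Among the membrane proteins, Laptm5 and Cd63 differed most. Laptm5, a lysosomal transmembrane protein, stood at 81.4, 88.3, 30.7, 27.4 and 46.6 CPM on the infarcted side against 19.9, 18.7, 14.0, 16.1 and 22.6 CPM, with 11.6 CPM in naive cortex (1.40 ± 0.20, adjusted p = 0.01). Cd63, a tetraspanin of late endosomes and exosomes, stood at 668, 569, 274, 197 and 254 CPM against 171, 148, 128, 124 and 204 CPM, with 123 CPM in naive cortex (1.19 ± 0.23, adjusted p = 0.0196). Laptm5 showed no overlap between sides, whereas the Cd63 library of the infarcted side at 1 m with LEV lay below the non-infarcted library at 2 m.

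The structural glycoproteins of the lysosomal membrane rose less. Lamp2 rose by 0.61 ± 0.10 (adjusted p = 0.0138) and Lamp1 by 0.45 ± 0.10 (adjusted p = 0.034), with infarcted levels of 144 to 272 CPM and 244 to 419 CPM. Their non-infarcted levels were 109 to 153 CPM and 205 to 313 CPM, so that the groups of both overlapped. Scarb2, the receptor that carries glucocerebrosidase to the lysosome, rose by 0.38 ± 0.08 (adjusted p = 0.0255), from 114 to 151 CPM on the non-infarcted side to 137 to 213 CPM. Npc1, which moves cholesterol out of the lysosome, stood at 46.5, 52.5, 39.1, 38.8 and 44.7 CPM against 35.0, 32.8, 29.3, 33.1 and 34.8 CPM, with 31.6 CPM in naive cortex. Its difference was small, 0.41 ± 0.07 (adjusted p = 0.0168), but its groups did not overlap.

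Mcoln1 (chromosome 8, 3500457 to 3515232, plus strand), the calcium channel of the lysosomal membrane, stood at 52.3, 56.5, 67.4, 55.6 and 64.2 CPM on the infarcted side against 60.4, 64.5, 70.2, 59.6 and 72.0 CPM, with 71.1 CPM in naive cortex. It was the 1 member lower on the infarcted side in every state, by a small amount that did not pass the test (-0.14 ± 0.06, adjusted p = 0.167).

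Of the 10 glycan hydrolases, Hexa and Man2b1 passed. Hexa, the α subunit of β-hexosaminidase, stood at 272, 228, 139, 104 and 94.2 CPM against 76.3, 72.0, 82.1, 76.9 and 76.8 CPM, with 80.5 CPM in naive cortex (0.99 ± 0.22, adjusted p = 0.0296). Lysosomal α-mannosidase (Man2b1) stood at 79.0, 79.2, 72.0, 42.4 and 61.2 CPM against 39.0, 33.5, 46.0, 35.8 and 42.6 CPM, with 46.6 CPM in naive cortex (0.72 ± 0.13, adjusted p = 0.0162). Hexa showed no overlap, and Man2b1 overlapped through the infarcted library at 1 m with LEV.

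β-Glucuronidase (Gusb) stood at 72.2, 67.4, 32.6, 26.2 and 24.5 CPM against 17.9, 16.2, 20.8, 21.3 and 22.3 CPM, with 21.3 CPM in naive cortex. Its groups did not overlap, but the ratio between sides was 4.03 (3.56 to 4.58) at 7 d and 1.09 (0.950 to 1.26) at 2 m, and the mean difference of 1.00 ± 0.28 missed the threshold (adjusted p = 0.0639). Naglu, an enzyme of heparan sulphate breakdown, stood at 28.9, 33.4, 14.0, 12.4 and 15.4 CPM against 10.8, 9.57, 9.95, 9.52 and 14.6 CPM, with 9.44 CPM in naive cortex (0.78 ± 0.22, adjusted p = 0.0651). Sgsh, which acts on the same polymer, stood at 4.40, 3.71, 3.02, 2.55 and 4.45 CPM against 2.72, 2.98, 2.83, 2.48 and 3.46 CPM, with 1.55 CPM in naive cortex (0.23 ± 0.11, adjusted p = 0.254). Both were higher on the infarcted side in all 5 states, and both groups overlapped.

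The remaining 5 glycan hydrolases overlapped between sides and did not pass. β-Mannosidase (Manba) stood at 12.8, 14.3, 12.5, 9.48 and 11.5 CPM against 9.95, 11.1, 7.63, 9.10 and 10.7 CPM, with 11.7 CPM in naive cortex (0.29 ± 0.10, adjusted p = 0.129). Acid α-glucosidase (Gaa), which degrades glycogen, stood at 157, 189, 169, 179 and 201 CPM against 171, 190.0, 152, 169 and 211 CPM, with 174 CPM in naive cortex. Its difference of 0.01 ± 0.06 (adjusted p = 0.968) had no stable sign, at -0.032 with TMM factors and -0.055 with median centring.

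The sialidase Neu1 stood at 50.2, 46.3, 54.9, 50.1 and 44.1 CPM against 54.1, 45.2, 57.2, 56.7 and 51.2 CPM, with 58.0 CPM in naive cortex (-0.10 ± 0.06, adjusted p = 0.355). β-Galactosidase (Glb1) stood at 23.1, 28.5, 18.7, 19.4 and 24.1 CPM against 20.1, 25.6, 17.4, 20.5 and 21.5 CPM, with 18.2 CPM in naive cortex (0.11 ± 0.07, adjusted p = 0.416). Its value is uncertain as its own, because the overlapping gene Tmppe on the same strand carries the same mean of 21.5 CPM. α-Galactosidase A (Gla) ranged from 5.46 to 10.2 CPM on the infarcted side and from 3.76 to 6.84 CPM on the other (0.51 ± 0.14, adjusted p = 0.0673).

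In the group of lipid enzymes and carriers, with which Grn is counted, Grn, Lipa and Npc2 rose. Progranulin (Grn), whose cleavage products support lysosomal enzymes, stood at 202, 219, 57.6, 51.3 and 64.3 CPM against 38.9, 33.9, 30.4, 36.9 and 41.2 CPM, with 32.1 CPM in naive cortex (1.40 ± 0.31, adjusted p = 0.0306). Lysosomal acid lipase (Lipa), which frees cholesterol from its esters, stood at 60.3, 53.8, 32.7, 18.7 and 30.1 CPM against 13.6, 15.0, 11.5, 13.3 and 18.3 CPM, with 17.4 CPM in naive cortex (1.28 ± 0.21, adjusted p = 0.0145). Npc2, which hands cholesterol on to NPC1, stood at 382, 304, 130.0, 109 and 117 CPM against 107, 98.4, 68.9, 75.1 and 71.4 CPM, with 73.9 CPM in naive cortex (1.12 ± 0.18, adjusted p = 0.0123). In these 3 genes no infarcted library reached down to the non-infarcted range.

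Prosaposin (Psap), the precursor of the saposins that present lipids to their enzymes, stood at 946, 1020.5, 857, 861 and 860.3 CPM against 797, 763, 687, 824 and 348 CPM, with 775 CPM in naive cortex. The groups did not overlap, but the difference was 0.47 ± 0.16 (adjusted p = 0.11). The non-infarcted library at 2 m, at 0.448 of the naive level (0.434 to 0.463), set its ratio of 2.48 (2.40 to 2.55) in that state, and without the 2 m pair the mean difference was 0.26. Acid ceramidase (Asah1) and palmitoyl-protein thioesterase 1 (Ppt1) differed by 0.31 ± 0.11 (adjusted p = 0.14) and 0.14 ± 0.06 (adjusted p = 0.214), with infarcted levels of 82.8 to 131 CPM and 98.5 to 135 CPM.

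Tfeb (chromosome 17, 47737030 to 47792419, plus strand) stood at 12.3, 9.62, 10.8, 11.6 and 8.78 CPM on the infarcted side against 5.23, 6.01, 13.7, 10.1 and 8.56 CPM, with 9.67 CPM in naive cortex. Infarcted levels lay on either side of the naive level, and both 7 d libraries of the non-infarcted side lay below all others. The ratio between sides was 2.35 (1.83 to 3.04) at 7 d and 0.79 (0.634 to 0.984) at 1 m, and the mean difference of 0.32 ± 0.18 did not pass (adjusted p = 0.325).

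Genes with and without the E-box overlapped widely in their side difference. The 12 genes with CACGTG had a median of 0.48 and ranged from -0.14 (Mcoln1) to 1.95 (Ctsd), and 5 of them rose. The 20 without it had a median of 0.99 and ranged from -0.10 (Neu1) to 1.71 (Ctss), and 14 of them rose. Lamp1, with its 4 copies, differed by 0.45, and Ctsd and Mcoln1, with 2 copies each in the RefSeq window, stood at opposite ends of the list.

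**Figure D3:**
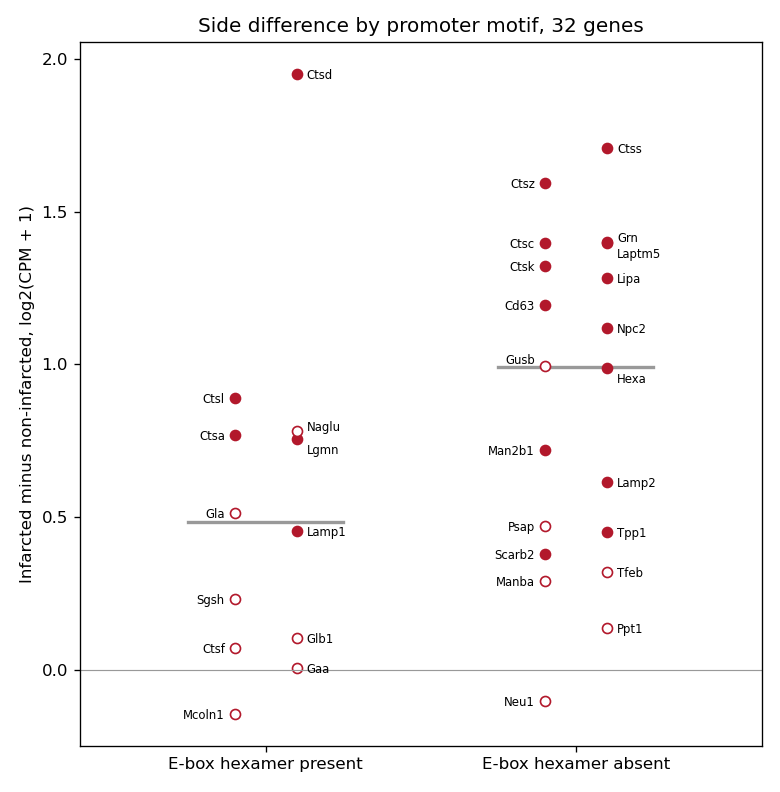
Side difference (log2(CPM + 1), mean over 5 states) of the 32 lysosomal genes with a RefSeq promoter window, split by whether the window holds the core E-box hexamer; filled points passed the test, open points did not, and grey bars are medians. The medians are 0.48 with the hexamer and 0.99 without it, and the ranges overlap.

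The summed level of the 36 genes was 8111, 7664, 4114, 3726 and 4136 CPM on the infarcted side and 3283, 3106, 2744, 3135 and 2947 CPM on the other, with 2985 CPM in naive cortex. Proteases made up most of the excess at 7 d: they summed to 3790 and 3448 CPM in the infarcted 7 d libraries and to 688 to 919 CPM on the non-infarcted side. Of the net summed excess at 7 d, Ctsd gave 28.0%, Ctsb 12.98% and Cd63 10.3%. At 1 m these shares were 11.5%, 10.7% and 10.6%, and Psap, with 3.08% at 7 d, gave the largest share, 12.4%.

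**Figure D4:**
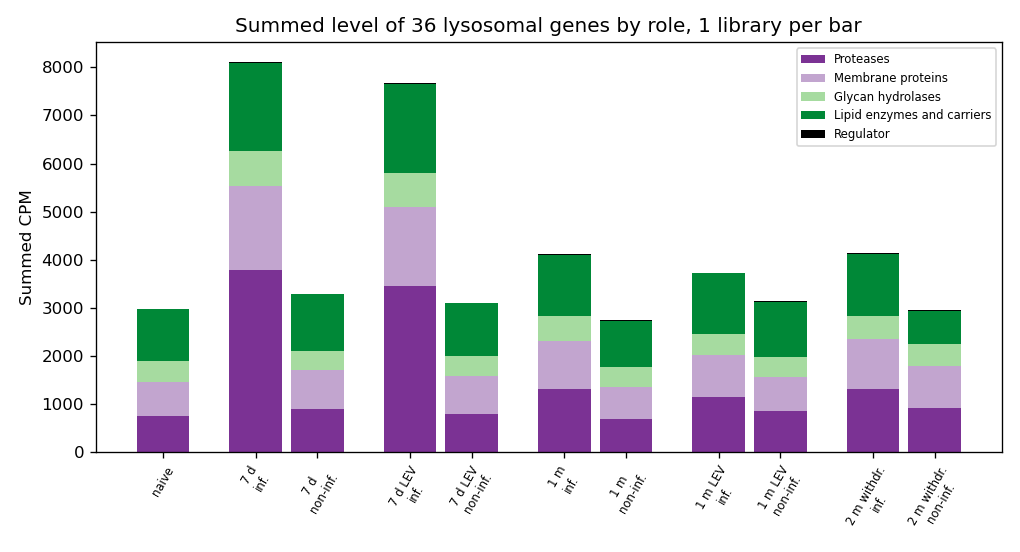
Summed CPM of 36 lysosomal genes in 11 libraries (1 bar each), stacked by role, from naive cortex through the infarcted (inf.) and non-infarcted (non-inf.) side of each state. The 7 d infarcted bars reach 8111 and 7664 CPM, the later infarcted bars 3726 to 4136 CPM, and the non-infarcted bars 2744 to 3283 CPM beside 2985 CPM in naive cortex.

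Microglia markers were also higher on the infarcted side. Their sum was 4.06, 3.88, 1.86, 1.63 and 1.52 times as high on the infarcted side, where the ratios of the summed proteases were 4.25, 4.33, 1.91, 1.33 and 1.43. C1qa, a complement gene, gave 58.5% of the marker excess at 7 d. Without it, a choice made after seeing the data, the marker sum was 2.79, 2.60, 1.49, 1.33 and 1.41 times as high. Of the 10 markers, 6 rose on the infarcted side and none was at 0 in any library. The markers differed unevenly between sides at 7 d without LEV. Siglech stood at 21.8 against 18.3 CPM, P2ry12 at 33.9 against 24.3 CPM and Tmem119 at 24.0 against 13.1 CPM. Aif1 stood at 161 against 35.5 CPM, Csf1r at 127 against 48.5 CPM and Fcrls at 52.8 against 9.06 CPM. Per CPM of summed microglia markers, Ctss stood at 0.184 to 0.284 CPM on the infarcted side and 0.133 to 0.196 on the other. Ctsd stood at 1.45 and 1.36 in the infarcted 7 d libraries, 0.524 to 0.681 in the later infarcted ones and 0.404 to 0.654 on the non-infarcted side. Cd63 stood at 0.465 to 0.684 against 0.474 to 0.784. Without C1qa in the sum, the values were 0.346 to 0.459 against 0.171 to 0.277 for Ctss, 0.982 to 2.97 against 0.549 to 0.923 for Ctsd and 0.872 to 1.30 against 0.727 to 1.07 for Cd63. The infarcted side then lay above the other for Ctss and Ctsd and overlapped it for Cd63. With all 10 markers in the sum, the sides overlapped for each of these genes. By that measure other members lay lower on the infarcted side, Ctsa at 0.164 to 0.244 against 0.248 to 0.308 and Npc1 at 0.0443 to 0.113 against 0.127 to 0.136. Ctsb, at 0.858 to 1.07 against 1.05 to 1.44, and Hexa, at 0.238 to 0.348 against 0.292 to 0.381, overlapped. For Ctsa this depended on C1qa. At 7 d with LEV its ratio between sides was 2.70, above the 2.60 of the marker sum without C1qa, and in the other states it lay below that sum's ratio. The 10 macrophage and monocyte markers summed to 19.5 to 135 CPM against 14.3 to 19.9 CPM. Of them 6 could be tested and 2 rose, Ms4a7 reaching 69.1 CPM at 7 d, while the monocyte marker Ccr2 was at most 0.456 CPM in any library and at 0 in 2. Of the fibroblast markers 6 of 8 rose, of the oligodendrocyte markers 6 of 8 (all 8 positive, median 0.37) and of the astrocyte markers 3 of 8. The part of each cell type in the lysosomal differences was not tested.

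Other genes of the lysosomal pathway, from lists chosen with earlier results of these data known, were read with the same test. By it 6.21% of all genes rose and 0.789% fell. Of 25 other hydrolases 8 rose and none fell (median 0.42), among them Dnase2a, which degrades engulfed DNA (1.36 ± 0.22, adjusted p = 0.0121), and the GM2 activator Gm2a (0.40 ± 0.08, adjusted p = 0.028). Of 17 other membrane proteins 4 rose and 1 fell, with Cd68, a phagocyte sialomucin, at 27.0 to 139 CPM on the infarcted side and above its highest non-infarcted library in every state (2.44 ± 0.34, adjusted p = 0.00924), the peptide transporter Slc15a3 at 2.14 ± 0.33 (adjusted p = 0.0116) and Cln3 at 0.52 ± 0.10 (adjusted p = 0.0225). Of these membrane proteins, the peptide carrier Abcb9 fell by 0.31 (adjusted p = 0.0402).

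The machinery that acidifies, supplies and senses the lysosome differed little at the median. Medians were -0.05 for the proton pump, -0.01 for enzyme sorting, -0.04 for autophagy and -0.01 for the TFEB family with mTORC1. Over all genes tested, 6.21% rose and 0.789% fell, and whether the counts of these short lists differ from those shares was not tested. Of 19 proton pump (V-ATPase) genes 2 rose (median -0.05), Atp6v0e by 0.48 ± 0.11 (adjusted p = 0.0396) and the macrophage and osteoclast isoform Atp6v0d2, at 1.197 to 8.90 CPM against 0 to 0.143 CPM (adjusted p = 0.00637). None of 11 genes of enzyme sorting and none of 17 autophagy genes passed in either direction. Of 18 genes of the TFEB family and of mTORC1 signalling at the lysosome, Fnip2 (0.48 ± 0.10, adjusted p = 0.0235) and Mitf (0.46 ± 0.11, adjusted p = 0.0442) rose. Of 6 protease inhibitors 3 rose, Serpina3n by 1.65 ± 0.15 (adjusted p = 0.00287), the cystatin Cst7 by 2.14 ± 0.28 (adjusted p = 0.00791) and the cystatin Cstb by 0.58 ± 0.13 (adjusted p = 0.0342).

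No lysosomal gene passed the test of either side against the 1 naive library. The median difference of the 36 genes from naive was 0.82 on the infarcted side, and in 26 genes all 5 infarcted libraries lay above naive, against 17.6% of all genes. With limma 0 genes of the list were called (0% of all genes rose and 0.00611% fell), 8 had an unadjusted p under 0.05 (3.81% of all genes), and edgeR also called 0, with 5 at an unadjusted p under 0.05. The smallest unadjusted p belonged to Ctss (2.03 ± 0.53) and Laptm5 (1.99 ± 0.59), each with an adjusted p of 1. On the non-infarcted side the median was 0.09, and the naive level lay inside the range of the 5 libraries for 28 genes, below it for 5 and above it for 3. Here limma called 0 of the 36 genes (0% of all genes in either direction) with 2 at an unadjusted p under 0.05 (0.945%), Sgsh (0.61 ± 0.22) and Laptm5 (0.60 ± 0.25), and edgeR called 0 with 2.

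Most of the rise had faded by 1 m. On the infarcted side 25 of 36 genes fell from 7 d to 1 m and none rose (limma over 4 libraries with LEV as a second factor, adjusted p under 0.05), where 11.4% of all genes fell and 5.27% rose. The median change was -0.84, against -0.04 over all genes. They were 11 of 12 proteases, 5 of 7 membrane proteins, 5 of 10 glycan hydrolases and 4 of 6 lipid enzymes and carriers. In 32 genes the 1 m library was the lower both without and with LEV, against 38.8% of all genes. This test has 1 residual degree of freedom against 45.3 borrowed from the spread over all genes, and on simulated data such fits made more false calls than the nominal rate, so that its p-values are too small. Leaving out 1 library, which also drops the LEV term, moved the count between 19 and 26.

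Ctsd fell most, by 2.55 on the log2 scale (SE 0.15, adjusted p = 3e-18), to 0.171 of its 7 d level both without LEV (0.165 to 0.177) and with it (0.165 to 0.176). Grn fell by 1.93 (adjusted p = 2.63e-15), to 0.286 and 0.234 of the 7 d level. Laptm5 and Npc2 each fell by 1.51, Ctsh by 1.501, and Ctsc and Ctsz by 1.46. Gusb and Ctsb, which had missed the threshold between sides, fell by 1.23 (adjusted p = 7.9e-09) and 1.25 (adjusted p = 8.27e-09). Both comparisons use the 7 d and 1 m infarcted libraries, so the values are not independent.

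Ctsf, Gaa, Neu1, Psap and Mcoln1 did not pass with time. Differences from 7 d to 1 m were -0.10 ± 0.14 for Ctsf, 0.01 ± 0.14 for Gaa, 0.12 ± 0.14 for Neu1 and -0.19 ± 0.16 for Psap. The value of Mcoln1 was 0.17 ± 0.14 (adjusted p = 0.485), with ratios of 1.29 without LEV and 0.984 with it. On the non-infarcted side 14 genes were lower at 1 m in both pairs, against 41.6% of all genes, 6 were higher in both and 16 moved in opposite directions. The median change of the 36 genes there was -0.25 without LEV and 0.02 with it, against -0.09 and -0.04 over all genes.

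**Figure D5:**
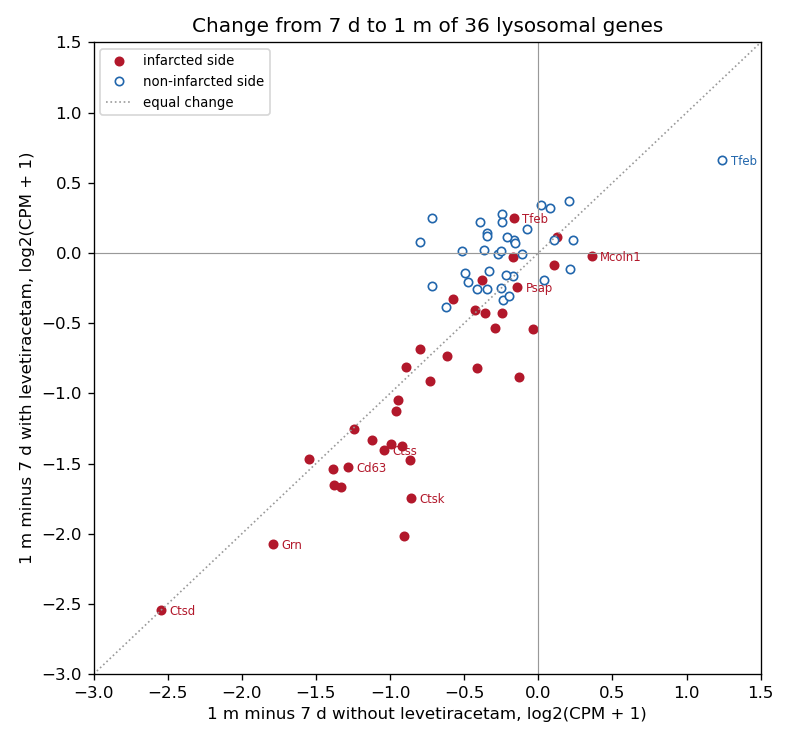
Change from 7 d to 1 m of 36 lysosomal genes on the log2(CPM + 1) scale, without LEV (x axis) and with LEV (y axis), for the infarcted side (filled) and the non-infarcted side (open); each point rests on 4 libraries and the dotted line marks equal change. Most infarcted points lie in the lower left, with Ctsd at about -2.55 on both axes. The non-infarcted points lie mostly below 0 without LEV (median -0.25) and on both sides of 0 with LEV (median 0.02). Among them Tfeb is the highest on both axes.

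The difference between sides was itself smaller at 1 m than at 7 d. It shrank in 23 of the 36 genes (limma on the 4 side differences with LEV as a second factor, adjusted p under 0.05), against 5.23% of all genes, and grew in none, against 0.24%. The median change was -0.84, against 0.03 over all genes. Ctsd shrank by 2.07 (adjusted p = 7.81e-21), Grn by 1.82, Gusb by 1.52, Ctsz by 1.45 and Ctsc by 1.43. The median side difference of the 36 genes was 1.12, 1.32, 0.54, 0.23 and 0.33 in the 5 states, against -0.05 to 0.06 over all genes, and 19, 19, 9, 0 and 5 genes were at least 2-fold higher on the infarcted side (4.97%, 5.26%, 1.91%, 0.321% and 1.81% of all genes). Without the 7 d or the 7 d LEV pair, and then also without the LEV term, 11 genes passed, without the 1 m LEV pair 15, and with median centring 14. Its p-values have the same limit as those of the infarcted side over time.

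Tfeb was among these 23 genes. Its side difference shrank by 0.91 (SE 0.23, adjusted p = 0.00639). The infarcted level had a mean change of 0.04 ± 0.19 from 7 d to 1 m, over opposite moves. It went from 12.3 to 10.8 CPM without LEV and from 9.62 to 11.6 CPM with it. The non-infarcted level was 2.63 times as high at 1 m as at 7 d without LEV (2.04 to 3.40) and 1.68 times with LEV (1.33 to 2.13). The call was lost with TMM factors (adjusted p = 0.154), with median centring (0.186), with no expression limit (0.0648), without LEV as a factor (0.0683), and without the 7 d (0.375), 7 d LEV (0.0804) or 1 m pair (0.172).

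Among the other genes of the pathway, hydrolases fell with time on the infarcted side and the acidifying, sorting and autophagy genes mostly did not pass. Of the other hydrolases 14 of 25 fell, with Dnase2a at -1.199 ± 0.18 (adjusted p = 7.53e-07). Cd68 fell by 1.93 (adjusted p = 1.42e-14) as 1 of 4 among 17 other membrane proteins, and Abcb9 rose by 0.47 (adjusted p = 0.04). By the same test 1 of 19 V-ATPase genes, 1 of 11 sorting genes and 1 of 17 autophagy genes fell, where 11.4% of all genes fell. Over the same interval 7 of 10 microglia markers, 5 of 6 macrophage and monocyte markers tested (median -1.91), 3 of 4 neutrophil markers tested and 4 of 8 astrocyte markers fell. Of the fibroblast markers 6 of 8 fell, with changes down to -4.28. Their part in the lysosomal fall was not tested.

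LEV had no effect on the infarcted side that passed the test in any lysosomal gene. Limma called 0 of 36 genes (0.128% of all genes rose and 0.39% fell) with 9 at an unadjusted p under 0.05 (8.35%), and edgeR called 0 with 8. With genes limited to a mean of at least 5 CPM, 1 gene passed. The median difference was -0.11, against 0.02 over all genes, and its sign changed when the 7 d or the 1 m LEV library was left out, where drug and time could no longer be told apart. Ctsh had the smallest p (-0.50 ± 0.14, adjusted p = 0.092), followed by Lipa (-0.47 ± 0.16, adjusted p = 0.232) and Ctsk (-0.61 ± 0.22, adjusted p = 0.282). By limma, the side difference changed with LEV in 0 of 36 genes, 6 of them with an unadjusted p under 0.05 (3.32% of all genes; it grew in 0.0986% of all genes and shrank in 0.0739%). Without the 7 d LEV pair, which leaves drug and time confounded, 8 passed.

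The pairs of single libraries behind this mean differed between the times. At 7 d the level with LEV was above that without it in 17 genes, against 64.4% of all genes, and below it in 19. At 1 m it was below in 27 of 36 genes, against 54.2% of all genes, with the interval of the ratio under 1 in 21 genes and over 1 in 4. Infarcted Ctsk with LEV was 0.382 times the level without it (0.252 to 0.571), Ctsc 0.482 (0.400 to 0.580), Lipa 0.574 (0.498 to 0.660), Man2b1 0.588 (0.536 to 0.646) and Ctsh 0.620 (0.559 to 0.689). Psap (1.00, 0.981 to 1.03) and Laptm5 (0.893, 0.784 to 1.02) had intervals that included 1. The side difference was smaller with LEV than without it in 34 of 36 genes at 1 m (59% of all genes) and in 11 of 36 at 7 d (38.4%). These ratios compare single libraries, and an interaction of LEV with time leaves no residual degrees of freedom.

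At 1 m, the summed fibroblast markers of the infarcted side moved in the same direction, from 310 CPM without LEV to 105 CPM with it, and so did the macrophage and monocyte markers, from 47.6 to 19.5 CPM. The summed microglia markers stood at 400 and 424 CPM, and at 249.9 and 226 CPM without C1qa. Their part in the lysosomal differences was not tested. On the non-infarcted side 26 genes were higher with LEV at 1 m (52.9% of all genes).

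At 2 m, after withdrawal, the summed level of the infarcted side, 4136 CPM, lay near those at 1 m, 4114 CPM without LEV and 3726 CPM with it. Single genes moved in both directions. Compared with the 1 m LEV library, 27 genes were higher (61.8% of all genes) and 9 lower, and compared with the 1 m library without LEV 18 were higher (62.1%) and 18 lower. Ctsk was 3.99 times the 1 m LEV level (2.78 to 5.84), Laptm5 1.70 (1.52 to 1.90), Lipa 1.61 (1.40 to 1.84) and Man2b1 1.44 (1.32 to 1.58). Ctsz (0.854, 0.796 to 0.915) and Tfeb (0.756, 0.612 to 0.933) were lower. Time, drug and withdrawal cannot be told apart in these libraries, since each state is 1 pair.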

How the data were processed

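The authors made CAGE libraries from total RNA of mouse cortex by cap-trapping, per the labels' protocols, and deposited CPM values for 22377 genes in 11 libraries, 1 per group. Per the submitters' processing notes, GRCm38 is named as a genome build. The same notes list HISAT2 2.0.5, BWA 0.7.17 and DESeq2 1.20.0, with no role given. All CPM values (100%) were whole tags within 0.01 tag once multiplied by a library total, and these tags gave the ratios of single libraries, with exact conditional binomial 95% intervals that cover counting error only, and the edgeR alternative.

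Log2(CPM + 1) of genes with a mean of at least 1 CPM in the libraries compared was tested with limma 3.58.1 (R 4.3.3, moderated statistic with a mean trend, two-sided). Benjamini-Hochberg adjustment ran over all genes tested. All 36 members passed the expression limit in every comparison. The comparison of sides used 10 libraries and a term for state, leaving 4 residual degrees of freedom, and it compares the sides within a state. Further tests were each side against naive over 6 libraries, and time and LEV over 4 libraries or 4 side differences, each leaving 1 residual degree of freedom. The fits were tested on simulated data, where all of them made more false calls than the nominal rate. The excess was largest in those with 1 residual degree of freedom, most of all those for time. False calls were 6.42% of all calls for the sides. On the infarcted side they were 36.5% for time and 11.8% for LEV. For the side differences they were 26.2% for time and 21.3% for LEV. Alternatives were a pseudocount of 0.25, no limit or a mean of at least 5 CPM, TMM factors, median centring, edgeR 4.0.16 quasi-likelihood on tags, no state or second factor, and each state left out, with the second factor dropped too in the time and LEV tests. The microglia sum without C1qa was added after seeing the data.

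The members and all lists were chosen with earlier results of these data known. Values in every library are given for the members with the 10 largest and 5 lowest side differences, the next 3 by p for time, LEV and each naive test, and Tfeb and Mcoln1. Of each pathway list up to 3 genes with the smallest side p among those called are named. A further hydrolase that the rule names is not reported here. Ms4a7, Ccr2 and the microglia markers named singly were chosen after their values were seen. Coordinates are from GENCODE M21 and promoter windows from RefSeq (GRCm38.p6), searched as letters.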

Additional observations from a re-analysis of the deposited data

Results flagged for a closer look

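The difference between sides was tested against time, and 23 of the 36 lysosomal genes had a smaller difference at 1 m than at 7 d (limma, Benjamini-Hochberg adjusted p under 0.05, over 4 side differences). Ctsd had the largest change among them, with a side difference lower by 2.07 at 1 m (-2.07 on the log2 scale). It passed under every alternative run. Tfeb changed by -0.91, beside a non-infarcted level that was low at 7 d, and its call was lost under 7 of the 10 alternatives run.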

How the results depend on the processing

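Between sides, 21 of 36 members passed, 0 to 24 when 1 state was left out and 7 without state as a factor. Over all genes 1136 passed, 732 at a mean of at least 5 CPM, 245 without the state factor and 71 to 1288 with 1 state left out, while the member median stayed at 0.57 to 0.87. Gaa, near 0, turned to -0.032 with TMM factors, -0.055 with median centring, -0.025 with edgeR, -0.030 without the 1 m and -0.012 without the 1 m LEV pair, and ranged from -0.030 to 0.039 with 1 state left out. The other 35 members kept their sign under every alternative run. Against naive, the 1 call on the infarcted side became 0 with TMM factors and 0 to 2 with 1 state left out (member median 0.65 to 0.94). The 0 calls on the non-infarcted side became 1 with no expression limit and 0 to 1 (median 0.06 to 0.13).

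From 7 d to 1 m, 2732 genes passed, 1547 without the second factor and 704 to 4962 with 1 state left out. Members passing numbered 19 to 26, and their median lay between -0.90 and -0.76 with a state left out and at -0.76 with median centring. For the change of the side difference, 888 genes passed, 379 with TMM factors, 271 with median centring (14 members), 503 without the second factor and 162 to 857 with a state left out (11 to 23 members, median -0.998 to -0.48).

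For LEV on the infarcted side, 85 genes passed. The count was 28 with a pseudocount of 0.25, 11 with no expression limit, 209 at a mean of at least 5 CPM (1 member, Ctsh), 12 with median centring, 13 with edgeR, and 0 with TMM factors, without the second factor and with any state left out. The member median of -0.11 ranged from -0.54 to 0.31, turning to 0.21 without 7 d and 0.31 without 1 m LEV, and was -0.46 without 1 m. For the side difference under LEV 28 genes passed, 7 with a pseudocount of 0.25, 2 with no limit, 0 with TMM factors, median centring or no second factor, and 0 to 144 with a state left out (0 to 8 members). Its median ranged from -0.58 to 0.31, at 0.07 without 7 d, 0.31 without 1 m LEV and -0.42 without 1 m. In the time and LEV tests, leaving out a state also drops the second factor, and for LEV it confounds drug and time. The cause of the other changes was not tested. The side test pairs both sides by state. For low members such as Sgsh, with a ratio of 1.62 (1.11 to 2.37) between sides at 7 d, counting error is as large as the spread between states, and for abundant ones the number of libraries limits the precision.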
